A study of Mus musculus with 12 samples.

Results

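The genes *Havcr1*, *Vcam1*, *Sox9*, *Sox4*, *Cd44*, *Spp1*, *Clu*, *Prom1*, *Plaur* and *Icam1*, were followed as markers of tubular injury and failed repair across the kidneys of 12 mice. They were chosen by name, as genes known to mark injured or incompletely repaired tubule cells. They are 10 of the 35275 genes in the table of read counts. These markers and the other gene lists used below were chosen with earlier results of these data known. The counts of their genes called are therefore descriptive and not an independent test. The study asked whether loss of caspase-1, the protease that inflammasomes activate, changes polycystic kidney disease in mice. Whole kidney RNA was sequenced from 3 groups of 4 C57BL/6J mice, each mouse 6 months old, with 2 males and 2 females in a group. WT mice carry normal *Pkd1*. RC/RC mice carry on both chromosomes a knock-in, hypomorphic *Pkd1* allele that gives a slowly progressive cystic disease. RC/RC:*Casp1*KO mice carry the same *Pkd1* alleles and, in every cell, a 28-base deletion in exon 6 of both copies of *Casp1*, all from 1 deletion line made with TALENs. The table gives a group and a mouse number for each column but no sex, so both sexes were kept together and an effect of sex was not tested. Over all genes the mice fell into close pairs within WT and within the knockouts. The chi-square over degrees of freedom, a measure of how far the counts of 2 mice differ, was 17.7 between the first and the second WT mouse and 16.4 between the third and the fourth, but 89.8 to 127 across them. Among the knockouts it was 15.7 and 31.8 for the same places in the table, so that mouse 70 was closest to the third knockout, and 67.1 to 93.4 across them. In RC/RC it was lowest between the third and the fourth mouse (37.2) and 67.6 to 128 for the others. No label names this division and no fit held a term for it, so it counts as spread within the groups. Values of single mice are given in the order of the table within each group, and the fourth knockout, mouse 70, is named by its number because it stands apart in several results. Between 18019819 and 24869454 reads were counted on genes in each mouse (median 21158883).

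When a kidney tubule is injured, its cells lose features of the mature epithelium and switch on genes for cell adhesion, matrix binding and regeneration. Most cells later return to the mature state, while some stay in a state called failed repair, in which adhesion molecules, chemokines and targets of NF-kB remain on and immune cells and fibroblasts gather nearby. In polycystic kidneys the expanding cysts compress the tubules around them, and injury markers have long been used to follow such damage. In whole tissue RNA a lower level can mean fewer cells of a type or less RNA in each cell, and these cannot be told apart.

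The markers cover very different levels. Per length, in FPKM of WT kidneys (reads on the gene scaled to its length and to all reads counted, mean ± SD, n = 4), *Spp1* was the highest with 769 ± 482, followed by *Clu* with 176 ± 51.2 and *Prom1* with 31.4 ± 18.1. *Icam1* (6.61 ± 0.286), *Plaur* (4.77 ± 1.18), *Vcam1* (4.62 ± 0.9) and *Sox4* (2.4 ± 0.695) came next. *Havcr1* (0.862 ± 0.505), *Cd44* (0.52 ± 0.101) and *Sox9* (0.218 ± 0.0417) were the lowest in healthy kidneys. In this order *Icam1* and *Plaur*, *Plaur* and *Vcam1*, and *Havcr1* and *Cd44* overlapped over the WT mice, and the other neighbors did not. *Spp1* alone took between 0.0472% and 0.587% of all reads counted in a mouse. All 10 markers passed the filter on weakly expressed genes in each of the 3 comparisons.

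The genotype of the knockout group was checked first. *Casp1* (ENSMUSG00000025888, mm10 chromosome 9, 5298517 to 5307265) was at 0.385, 0.664, 0.665 and 1.05 CPM (counts scaled to the library size, with TMM factors) in the 4 RC/RC:*Casp1*KO mice, called the knockouts here. It was at 2.62 to 4.26 CPM in the 4 RC/RC mice and at 1.29 to 2.06 CPM in the 4 WT mice. Every knockout was thus below every mouse of both other groups, with reads counted over the whole gene, most of which lies outside the deletion. The log2 fold change against RC/RC was −2.35 (SE 0.32, adjusted p = 0.00514). Here and below adjusted p-values are from the quasi-likelihood test of edgeR, adjusted by Benjamini-Hochberg over all genes tested.

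Promoter sequences are shown for *Plaur* and *Icam1*, because *Plaur* is the one marker that passed the test in the comparison of the caspase-1 knockout with RC/RC and *Icam1* is a well-known target of NF-kB. Each run is the 160 bases just before the RefSeq start of the gene (GRCm38.p6, the build of mm10), plus strand, with motif matches in capitals. The runs lie at chr7:24462323-24462482 for *Plaur* and chr9:21015780-21015939 for *Icam1*. The gene starts given with the counts are further on, at 24462500 for *Plaur* and 21015960 for *Icam1*.
Plaur: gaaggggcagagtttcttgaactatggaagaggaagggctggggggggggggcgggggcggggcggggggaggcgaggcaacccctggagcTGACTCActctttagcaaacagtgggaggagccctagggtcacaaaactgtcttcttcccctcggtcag
Icam1: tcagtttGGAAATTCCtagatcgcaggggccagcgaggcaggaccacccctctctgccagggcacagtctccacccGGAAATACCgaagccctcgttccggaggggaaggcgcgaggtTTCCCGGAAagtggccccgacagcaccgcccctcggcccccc
A set of 4 motifs was searched on both strands in the 300 bases around the start (250 before it, 50 after) of the 11 promoters that the RefSeq table holds for 7 of the 10 genes, and in all 32851 promoters of that table. *Plaur* has TGANTCA, the AP-1 type, 69 bases before the start, as TGACTCA. This motif is in 7.81% of all promoters, and it is also found in promoters of *Havcr1* and *Prom1*. *Icam1* has GGNNNTTCC, the NF-kB type, 153 bases before the start as GGAAATTCC and 84 bases before it as GGAAATACC, a match on the opposite strand. That type is in 18.5% of all promoters, and *Plaur* also has it, 17 bases after the start. The STAT type, TTCNNNGAA, is in *Icam1* 42 bases before the start, overlapping none of the other matches, and in 8.3% of all promoters. GGAATG, the TEAD type, is in *Sox4* 168 bases before the start and in 14.7% of all promoters. These matches describe the letters only.

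In RC/RC kidneys 7 of the 10 markers rose against WT and none fell. Of all 15243 genes tested 9.76% were called higher and 3.18% lower. The 7 were *Havcr1*, *Cd44*, *Sox9*, *Vcam1*, *Sox4*, *Icam1* and *Plaur*, with increases from 1.71-fold to 29.8-fold. The median log2 fold change of the 10 markers was 1.21, beside −0.02 for all genes tested. For 6 markers each RC/RC mouse was above each WT mouse, a pattern found in 12.7% of genes tested, and for none was the order the reverse (6.58%).

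*Havcr1* (ENSMUSG00000040405, chromosome 11, 46735080 to 46779578, plus strand) encodes KIM-1, a phosphatidylserine receptor with which injured proximal tubule cells take up dying neighbors. It was at 2.87, 0.479, 1.5 and 2.48 CPM in the WT mice, at 86.6, 50.3, 43.9 and 40.3 CPM in the RC/RC mice and at 6.27, 13.0, 6.09 and 41.9 CPM in the knockouts. All RC/RC mice were far above all WT mice, 3 of the knockouts lay between the groups, and mouse 70 reached the lower end of the RC/RC mice. The log2 fold change of RC/RC against WT was 4.90 (SE 0.47, adjusted p = 0.000393), the largest of the 10. Against RC/RC the caspase-1 knockout differed by −1.71 (SE 0.59, adjusted p = 0.0856), which did not pass the threshold.

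*Sox9* and *Sox4* encode transcription factors of the SOX family. SOX9 is switched on in tubule cells that regenerate after injury, and SOX4 takes part in kidney development and in epithelial plasticity. *Sox9* (ENSMUSG00000000567, chromosome 11, 112782224 to 112787760, plus strand) was at 1.0, 1.2, 0.849 and 0.75 CPM in the WT mice, at 2.71, 2.84, 3.99 and 3.91 CPM in the RC/RC mice and at 1.19, 1.38, 0.831 and 4.63 CPM in the knockouts. Among the knockouts the first and the third were inside the WT range, the second was just above it, and mouse 70 was higher than any RC/RC mouse. The log2 fold change of RC/RC against WT was 1.81 (SE 0.26, adjusted p = 0.00255), and that of the knockout against RC/RC was −0.74 (SE 0.50, adjusted p = 0.333). *Sox4* (ENSMUSG00000076431, chromosome 13, 28948919 to 28953713, minus strand) was at 8.59 to 16.3 CPM in WT, at 18.7 to 33.3 CPM in RC/RC and at 8.81 to 21.7 CPM in RC/RC:*Casp1*KO mice. It rose in RC/RC by 1.00 on the log2 scale (SE 0.23, adjusted p = 0.0208). Without the first RC/RC mouse or without the fourth WT mouse that call was lost (adjusted p = 0.0502 and 0.0652).

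*Vcam1*, *Icam1* and *Cd44* encode adhesion molecules. VCAM-1 binds integrins of leukocytes and marks tubule cells in the failed-repair state, ICAM-1 binds leukocyte integrins that contain the beta-2 chain, and CD44 is a receptor for hyaluronan and for osteopontin. *Vcam1* (ENSMUSG00000027962, chromosome 3, 116110020 to 116129688, minus strand) was at 19.6, 14.3, 13.3 and 19.0 CPM in the WT mice, at 55.8, 49.4, 53.4 and 54.9 CPM in the RC/RC mice and at 17.7, 21.2, 19.6 and 54.6 CPM in the knockouts. The RC/RC mice were close to each other and well above the WT mice, and among the knockouts mouse 70 stood with the RC/RC mice while the other 3 stood at or just above the WT mice. *Vcam1* rose in RC/RC by 1.68 on the log2 scale (SE 0.14, adjusted p = 0.000208).

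*Cd44* (ENSMUSG00000005087, chromosome 2, 102811141 to 102901665, minus strand) was at 3.68, 2.35, 3.05 and 3.19 CPM in the WT mice, at 16.7, 20.5, 20 and 13.4 CPM in the RC/RC mice and at 7.2, 7.02, 5.7 and 16.9 CPM in the knockouts. No knockout reached down to the WT mice, and mouse 70 was again inside the range of the RC/RC mice. *Cd44* rose in RC/RC by 2.52 on the log2 scale (SE 0.20, adjusted p = 0.000194). *Icam1* (ENSMUSG00000037405, chromosome 9, 21015960 to 21028797, plus strand), whose promoter is printed above, was at 17.3 to 18.3 CPM in WT mice, which were closer together, relative to their mean, than for any other of the markers. It was at 35.8, 39.2, 31.1 and 31.7 CPM in the RC/RC mice and at 15.9, 21.8, 16.6 and 32.5 CPM in the knockouts. A pair of knockouts, the first and the third, was below every WT mouse and mouse 70 was among the RC/RC mice. *Icam1* rose in RC/RC by 0.96 on the log2 scale (SE 0.11, adjusted p = 0.000809).

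*Spp1* and *Clu* encode secreted proteins. Osteopontin, from *Spp1*, is a matrix phosphoprotein that binds integrins and CD44, and clusterin is a chaperone found outside cells that injured tubules release. *Spp1* (ENSMUSG00000029304, chromosome 5, 104435118 to 104441050, plus strand) was at 2121, 1584, 484 and 704 CPM in the WT mice, at 5504, 3383, 2099.7 and 2051 CPM in the RC/RC mice and at 1316, 1751, 635 and 1928 CPM in the knockouts. The first WT mouse overlapped the RC/RC mice, whereas all 4 knockouts, mouse 70 included, were below all 4 RC/RC mice. Neither difference passed the test, with log2 fold changes of 1.41 for RC/RC against WT (SE 0.49, adjusted p = 0.092) and −1.20 for the knockout against RC/RC (SE 0.40, adjusted p = 0.0808). *Clu* (ENSMUSG00000022037, chromosome 14, 65968483 to 65981548, plus strand) was at 355, 465, 212 and 316 CPM in the WT mice, at 716, 657, 384 and 396 CPM in the RC/RC mice and at 226, 267, 110.3 and 409.5 CPM in the knockouts. The second WT mouse was above the lower pair of RC/RC mice, and mouse 70 was the highest knockout and the only one that reached the RC/RC range. Its log2 fold changes were 0.67 for RC/RC against WT (SE 0.28, adjusted p = 0.148) and −1.08 for the knockout against RC/RC (SE 0.37, adjusted p = 0.0824). For both *Spp1* and *Clu* the first and the second mouse were above the third and the fourth in WT and in RC/RC. Within each of these pairs of places every RC/RC mouse was above every WT mouse, an order seen in the values and not tested. No label matches a place in WT to the same place in RC/RC. Over all genes the first and the second RC/RC mouse (chi-square over degrees of freedom 69.7) were no closer than the second and the third (67.6). The part of a division by place in the comparisons of *Spp1* and *Clu* was not tested.

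*Plaur* (ENSMUSG00000046223, chromosome 7, 24462500 to 24475873, plus strand), whose promoter is printed above, encodes the receptor for urokinase, a protease that activates plasminogen at the cell surface. It was at 9.42, 6.08, 6.64 and 5.86 CPM in the WT mice, at 10.8, 14.7, 13.3 and 9.19 CPM in the RC/RC mice and at 8.43, 6.5, 5.26 and 6.59 CPM in the knockouts. The fourth RC/RC mouse was just below the first WT mouse, while all knockouts were below all RC/RC mice and mouse 70 was in the middle of its own group. *Plaur* rose in RC/RC by 0.77 on the log2 scale (SE 0.21, adjusted p = 0.0413) and fell in the knockout against RC/RC by 0.84 (SE 0.20, adjusted p = 0.030). Both calls are close to the threshold. In fits that each lacked 1 mouse, the rise passed in 2 of 8, those without the first WT mouse or the fourth RC/RC mouse. The fall passed in 3 of 8, those without the first knockout, the first RC/RC mouse or the fourth RC/RC mouse, and it was lost without any of the other 5 mice, mouse 70 included.

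*Prom1* (ENSMUSG00000029086, chromosome 5, 43993625 to 44102032, minus strand) encodes prominin-1, or CD133, a membrane protein of scattered tubule cells with progenitor features. It was at 193, 179, 50.1 and 75.7 CPM in the WT mice, at 128, 82.6, 56.2 and 61.1 CPM in the RC/RC mice and at 129.9, 136, 47.1 and 55.6 CPM in the knockouts. In WT and in the knockouts the first and the second mouse were high and the third and the fourth low, the same division as over all genes, and the groups overlapped. Its part in the comparisons of *Prom1* was not tested. *Prom1* was the one marker with a lower mean in RC/RC than in WT, and none of its 3 comparisons passed the test (adjusted p = 0.375 for RC/RC against WT, 0.785 for the knockout against RC/RC and 0.631 for the knockout against WT).

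**Figure D1:**
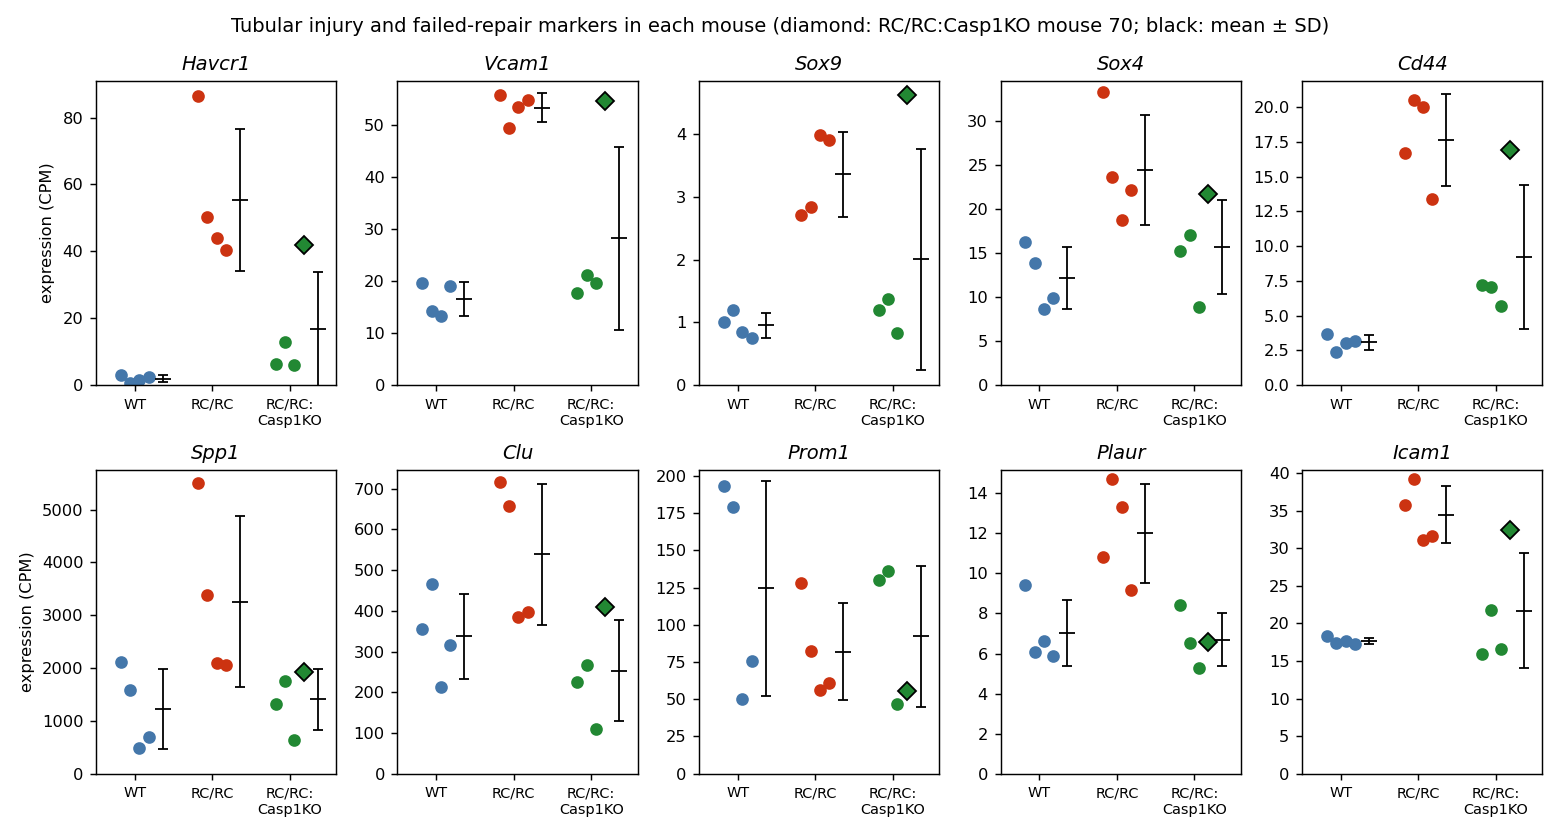
Expression of the 10 markers in each mouse in CPM, with 1 panel per gene, 1 point per mouse and bars for the mean and SD of each group (n = 4 mice), where the axes start at 0 and end the *Havcr1* bar of the knockouts. The diamond is knockout mouse 70. *Havcr1*, *Vcam1*, *Sox9*, *Cd44* and *Icam1* show 4 RC/RC mice above 4 WT mice and mouse 70 at the level of the RC/RC mice, whereas for *Plaur* that mouse is at 6.59 CPM with the rest of its group.

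When the knockouts were set against RC/RC kidneys *Plaur* was the single marker called by edgeR's quasi-likelihood test, lower in the knockout, and no marker was called higher. Of all 15428 genes tested 4.41% were called lower and 7.23% higher. This count depended on the tool and the scaling. DESeq2's Wald test called 6 markers lower (*Cd44*, *Clu*, *Icam1*, *Plaur*, *Spp1* and *Vcam1*), beside 18.1% of the genes it tested called in either direction, and edgeR with library size alone called 0. The median log2 fold change of the 10 markers was −0.88, beside −0.03 for all genes tested. The log2 fold change was negative for 9 of them, and 8 were lower at an unadjusted p under 0.05, as against 31.7% of all genes tested in either direction. For 2 markers, *Spp1* and *Plaur*, every knockout was below every RC/RC mouse, a pattern found in 9.18% of genes tested. The comparison shares its RC/RC mice with the comparison to WT, so a high RC/RC mouse moves both.

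For most of the markers 1 knockout differed from the other 3. For 9 of the 10 markers, all but *Prom1*, the first 3 knockouts were all below every RC/RC mouse, a pattern found in 14.1% of genes tested. Mouse 70 was the highest of its group for 8 markers, all but *Prom1* and *Plaur* (28.2% of genes tested), and for 6 of them it was inside the RC/RC range (11.2%). Its *Casp1* level, 1.05 CPM, was the highest of its group and below that of all RC/RC and WT mice, its depth was 20335245 reads and mitochondrial genes held 8.58% of them, within the range of the other mice (7.78% to 12.1%). In a fit without mouse 70, *Havcr1* (log2 fold change −2.70, SE 0.37, adjusted p = 0.00805), *Vcam1* (−1.45, SE 0.12, adjusted p = 0.00407) and *Sox9* (−1.56, SE 0.29, adjusted p = 0.019) were lower in the knockout. *Cd44* (−1.41, SE 0.19, adjusted p = 0.00782), *Clu* (−1.41, SE 0.35, adjusted p = 0.0423) and *Icam1* (−0.93, SE 0.15, adjusted p = 0.0144) also passed, so that 6 markers were called lower, beside 4.42% of all 15569 genes tested in this fit, and *Plaur* did not pass (−0.83, SE 0.22, adjusted p = 0.0542). Each mouse was left out in turn, and this fit was singled out after the values had been seen.

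Mouse 70 also stood apart over the other genes called higher in RC/RC than in WT. Over all genes it did not, being closest to the third knockout (chi-square over degrees of freedom 31.8). Each knockout was placed on the way from the WT mean (0%) to the RC/RC mean (100%) on the log2 scale, as the median over the 1480 other genes called higher in RC/RC than in WT. The first 3 knockouts were at 30.8%, 41.1% and 20.9% of the way and mouse 70 was at 80.6%. Over the 484 genes called lower in RC/RC the 4 knockouts were closer together, at 42.1%, 47.3%, 42.1% and 57.3%. For the 7 markers called in RC/RC the medians were 35.7%, 31.6%, −8.11% and 93.0%. All these genes were called with the same WT and RC/RC mice that set 0% and 100%. That choice widens the distance between the ends, so a place below 100% is not by itself a difference from RC/RC.

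**Figure D2:**
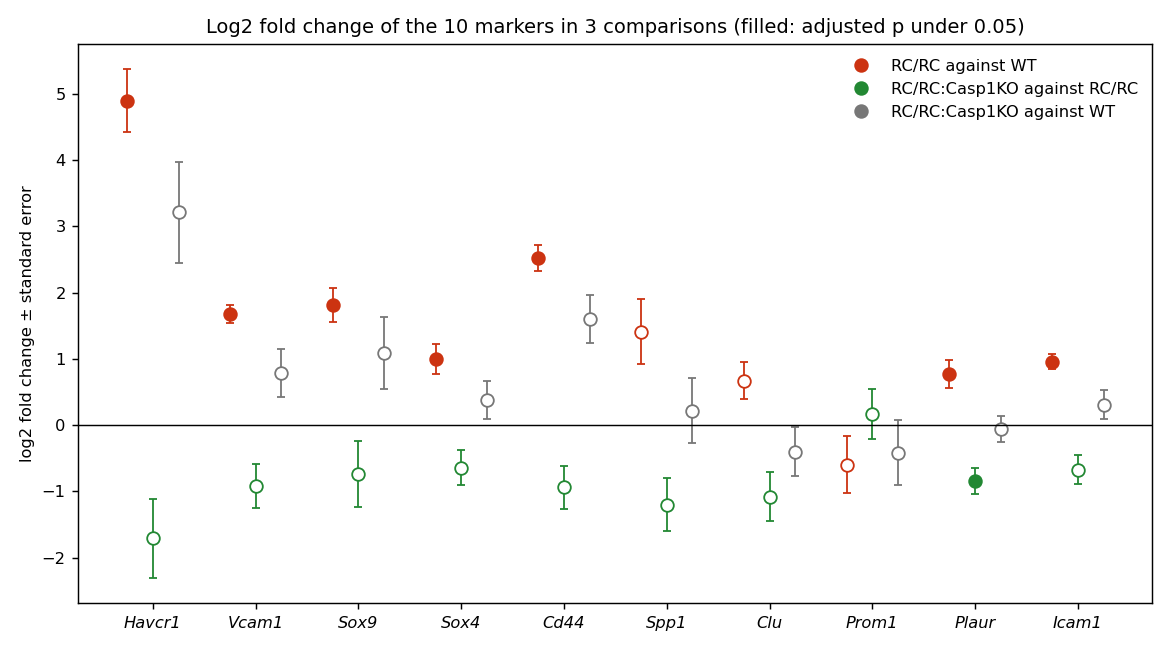
Log2 fold changes of the 10 markers in the 3 comparisons with bars for 1 SE, filled where the adjusted p was under 0.05. The 7 filled points of RC/RC against WT are all above 0, *Plaur* is the single filled point of the knockout against RC/RC, and no point of the knockout against WT is filled.

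Comparing the knockouts with WT kidneys, 0 of the 10 markers were called by edgeR's quasi-likelihood test, beside 2.03% of all 15346 genes tested. At an unadjusted p under 0.05 there were 2, *Havcr1* and *Cd44*, both higher in the knockout, beside 21.8% of all genes tested in either direction. DESeq2's Wald test called the same pair, beside 7.72% of the genes it tested. *Havcr1* differed by 3.21 on the log2 scale (SE 0.76, adjusted p = 0.069) and *Cd44* by 1.60 (SE 0.36, adjusted p = 0.0586). For both genes all 4 knockouts were above all 4 WT mice, a pattern found in 7.47% of genes tested, and for no marker were all of them below (6.22%). Without mouse 70 the differences were 2.20 (SE 0.53, adjusted p = 0.121) for *Havcr1* and 1.12 (SE 0.20, adjusted p = 0.053) for *Cd44*. The median log2 fold change of the 10 markers was 0.34, beside 0.01 for all genes tested. These mice are the same as in the other comparisons, so the 3 sets of values are not independent.

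Other genes known for acute tubular injury rose with the markers. Of 19 tested, 12 were higher and none was lower in RC/RC than in WT (median log2 fold change 1.25, beside −0.02 for all genes tested, of which 9.76% were called higher and 3.18% lower). *Lcn2*, which encodes the iron-siderophore binding protein NGAL, rose by 5.54 on the log2 scale (SE 0.37, adjusted p = 6.52e-05) and *Timp1*, an inhibitor of matrix metalloproteinases, by 4.91 (SE 0.62, adjusted p = 0.0016). *Krt20*, a keratin of injured epithelium, rose by 3.02 (SE 0.53) and *Cyr61*, a matrix protein and target of YAP, by 2.13 (SE 0.19). Against RC/RC, 9 of the 19 were lower in the knockout and none was higher (median −1.22, beside −0.03 for all genes tested, of which 4.41% were called lower and 7.23% higher). Those with the largest decreases were the calcium-binding *S100a6* (−1.70, SE 0.32), the stress-induced transcription factor *Atf3* (−1.51, SE 0.27), the TWEAK receptor *Tnfrsf12a* (−1.26, SE 0.20) and the stress cytokine *Gdf15* (−1.24, SE 0.25). *Lcn2* (−1.91, SE 0.71, adjusted p = 0.104) and *Timp1* (−2.43, SE 0.75, adjusted p = 0.063) did not pass. Against WT none of the 19 was called in the knockout (median 0.25, beside 0.01 for all genes tested, of which 1.13% were called higher and 0.893% lower). These shares and medians of all genes also stand behind the counts of the lists that follow.

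Genes of the failed-repair state gave a like count. Of 24 tested, 12 were higher and none was lower in RC/RC than in WT, with a median of 0.81. The other 12 were not called. Of the 24, 4 had a log2 fold change below 0, among them *Itgb8* (−0.55, SE 0.23) and *Itgb6* (−0.40, SE 0.20). *Ccl2*, the chemokine that draws monocytes, rose by 3.56 (SE 0.40, adjusted p = 0.000806), the complement component *C3* by 2.81 (SE 0.35), the intermediate filament gene *Vim* by 1.87 (SE 0.29) and *Edn1*, the precursor of endothelin-1, by 1.58 (SE 0.23). The NF-kB subunits *Relb* (1.29, SE 0.14) and *Nfkb2* (0.89, SE 0.13) rose too. *Traf1* (0.98, SE 0.28), *Tnfaip3* (0.52, SE 0.18) and *Birc3* (0.45, SE 0.16) of the same list did not pass. Against RC/RC, 8 of 25 were lower in the knockout and none was higher (median −0.54), among them *Vim* (−1.35, SE 0.28), *Edn1* (−1.25, SE 0.32), the cell cycle inhibitor *Cdkn1a* (−1.15, SE 0.31) and the macrophage growth factor *Csf1* (−0.87, SE 0.20). *Cdkn1a* had not changed past the test in RC/RC against WT (0.16, SE 0.33, adjusted p = 0.778). Against WT, 1 of 24 was called in the knockout (median 0.40), the guidance receptor ligand *Sema5a*, which was higher by 0.59 (SE 0.11, adjusted p = 0.0396). Over both lists 24 genes were called in RC/RC against WT and 17 in the knockout against RC/RC. The latter count rose to 22 without mouse 70 and was 6 and 4 without the second and the third RC/RC mouse and 5, 5 and 6 without the first, the second and the third knockout.

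**Figure D3:**
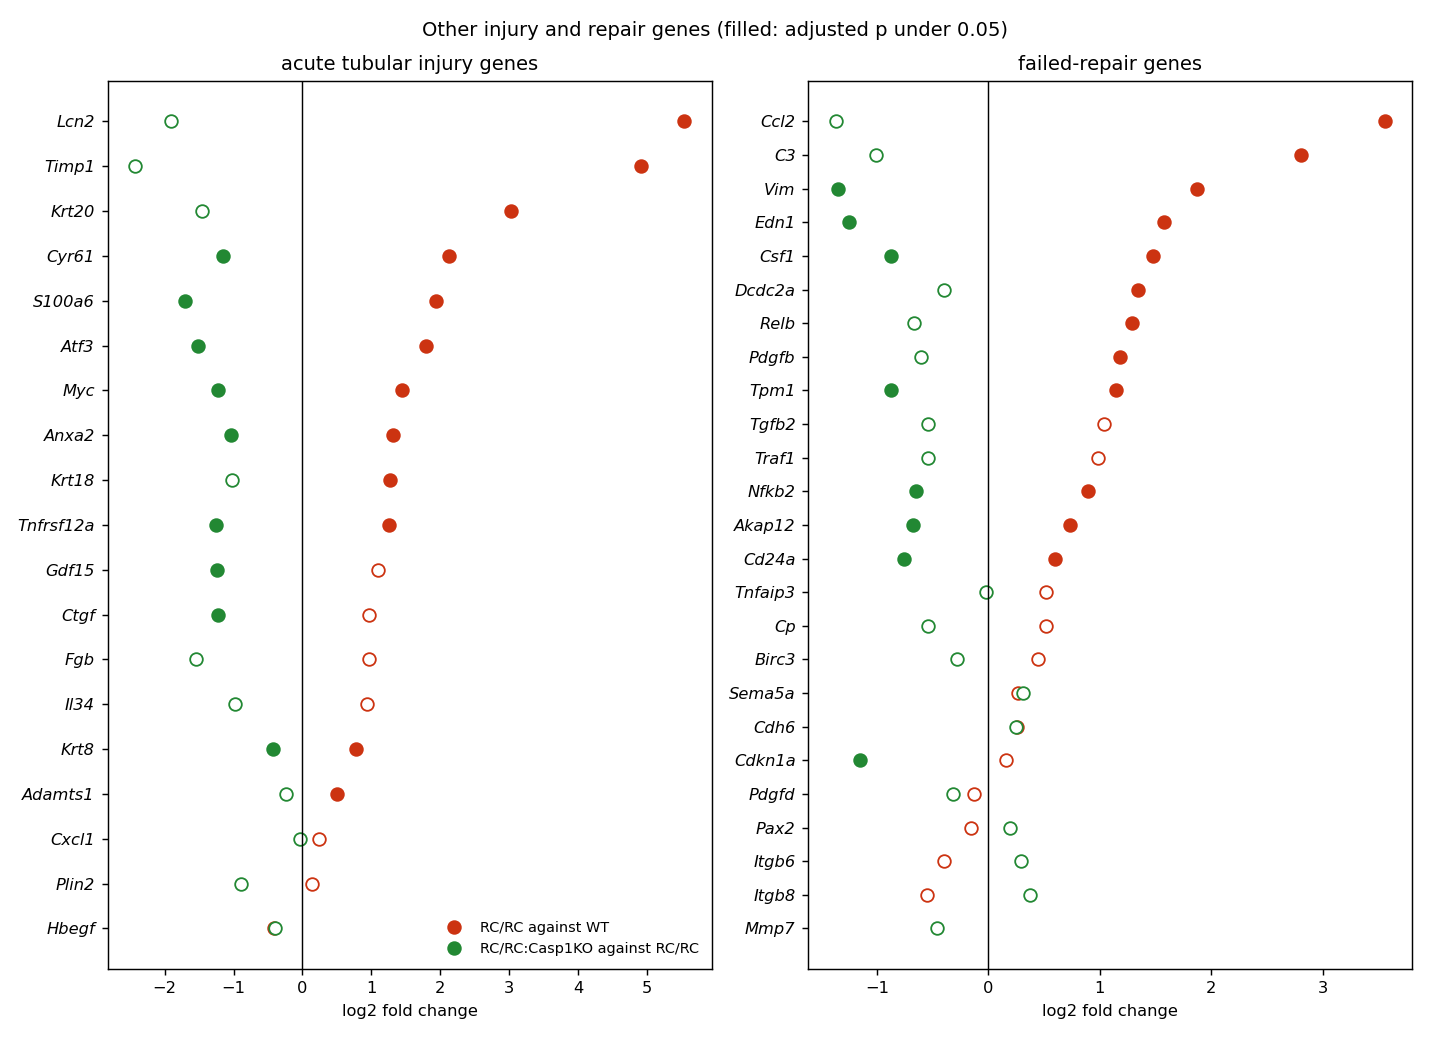
Log2 fold changes of the acute injury genes and the failed-repair genes, RC/RC against WT and RC/RC:*Casp1*KO against RC/RC, filled where the adjusted p was under 0.05 (*Mmp7* was tested in the second comparison only). Filled points of the first comparison are all above 0 (12 and 12 genes) and those of the second all below 0 (9 and 8 genes).

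Proteins that bind the products of the markers were read in the same way. Of 21 genes for ligands, receptors and partners, 8 were higher and 1 was lower in RC/RC than in WT (median 0.64, beside −0.02). The integrin chain *Itgam* rose by 1.76 on the log2 scale (SE 0.19, adjusted p = 0.000688), its partner chain *Itgb2* by 1.38 (SE 0.15), and *Cd74*, the CD44-bound receptor for MIF, by 1.48 (SE 0.19). *Itgam* and *Itgb2* encode the 2 chains of a leukocyte receptor for ICAM-1. *Prom2*, a relative of *Prom1*, was lower (−1.29, SE 0.25, adjusted p = 0.00989). Against RC/RC, 1 was higher and 3 were lower in the knockout (median −0.25, beside −0.03). *Lrp2*, the endocytic receptor megalin of the proximal tubule, which takes up clusterin, was higher by 1.52 (SE 0.28, adjusted p = 0.0144). Among those lower were *Itga9* (−0.82, SE 0.18) and *Itgb5* (−0.58, SE 0.14), chains of osteopontin-binding integrins. Against WT 1 was called in the knockout, *Cd74*, higher by 1.15 (SE 0.23, adjusted p = 0.0458), and the median was 0.46, beside 0.01. Urokinase itself, *Plau*, was not called in any of the 3 comparisons.

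The rest of the SOX family was compared with *Sox9* and *Sox4*. Of 18 listed genes 9 were tested. In RC/RC against WT 3 were higher and none lower (median 0.54, beside −0.02, with 9.76% of all genes called higher), *Sox8* (2.75, SE 0.37), *Sox11* (2.53, SE 0.42) and the endothelial *Sox18* (1.38, SE 0.28). Against RC/RC 2 were lower in the knockout (median −0.21, beside −0.03, with 4.41% of all genes called lower), *Sox18* (log2 fold change −1.21, SE 0.25) and *Sox7* (−0.75, SE 0.20). Against WT 2 were higher in the knockout (median 0.30, beside 0.01, with 1.13% of all genes called higher), *Sox8* (2.06, SE 0.41) and *Sox12* (0.47, SE 0.10).

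Markers of macrophages, fibroblasts and lymphocytes were higher in RC/RC kidneys, as 7 of the injury markers were. Of 8 macrophage and dendritic cell markers 7 were higher in RC/RC than in WT (median 1.70), led by the lysozyme gene *Lyz2* (2.54, SE 0.23) and the complement genes *C1qa*, *C1qb* and *C1qc* (1.73, 1.72 and 1.71). Their summed level was 198, 164, 169 and 153 CPM in the WT mice, 552, 534, 482 and 402 CPM in the RC/RC mice and 274, 254, 202 and 454 CPM in the knockouts. Mouse 70 was again among the RC/RC mice. Of the 8, 3 were lower in the knockout than in RC/RC (median −1.06), *C1qa*, *Cd14* and *C1qb*, and 6 of 8 without mouse 70. None was called between the knockout and WT (median 0.69). *Adgre1* was not matched by that symbol, and *Lyz2* was the most abundant of the matched genes at a mean of 64.7 FPKM.

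All 8 fibroblast and pericyte markers were higher in RC/RC than in WT (median 2.11), led by the collagen genes *Col1a1* (3.00, SE 0.34) and *Col3a1* (2.93, SE 0.33). Their sum was 267 to 359 CPM in WT and 889.6 to 2084 CPM in RC/RC mice. The knockouts were at 362, 497, 345 and 747 CPM, so that mouse 70 was the highest of its group and below all RC/RC mice. Of the 8, 6 were lower in the knockout than in RC/RC (median −1.59), and 6 of 8 without mouse 70. Against WT *Dcn*, the proteoglycan decorin and the most abundant of the list at 48.0 FPKM, was called, higher by 1.02 (SE 0.13), with a median of 0.50 for the list. Of 9 T and B cell markers 8 were higher in RC/RC (median 1.86), among them *Cd3g*, the most abundant at 1.49 FPKM, and their sum was 4.83 to 8.66 CPM in WT mice and 14.4 to 29.3 CPM in RC/RC mice. The knockouts had sums of 8.85, 11.7, 13.0 and 23.2 CPM, with mouse 70 the highest. Against RC/RC 1 of 9 was lower in the knockout (*Cd79b*, median −0.72), and against WT the median of the 8 tested was 1.22. None of the 2 or 3 tested neutrophil markers was called in a comparison (medians 0.53, −0.41 and 0.27), *S100a8* being the most abundant at 1.13 FPKM and *Ly6g* at 3 counts or fewer in every mouse.

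Most markers of the proximal tubule, the thick ascending limb and the distal tubule went in the opposite direction, as did all of those called. In RC/RC against WT the log2 fold change was below 0 for 11 of 12 proximal tubule markers and for 6 of 6 of the other list. In the knockout against RC/RC it was above 0 for 12 of 12 and for 4 of 6. Of 12 proximal tubule markers 2, the glucose transporter *Slc5a2* (−1.23, SE 0.28) and the endocytic receptor *Cubn* (−1.08, SE 0.27), were lower in RC/RC than in WT (median −0.71), and in the knockout against RC/RC *Lrp2* and *Cubn* (1.34, SE 0.25) were higher (median 0.40). Against WT none was called in the knockout (median −0.16), and the phosphate transporter *Slc34a1* was the most abundant at 1553 FPKM. Their sum was 13069 to 19885 CPM in WT mice, 7078 to 15500.3 CPM in RC/RC mice and 15796, 14850, 18594 and 15598 CPM in the knockouts. For these markers mouse 70 was inside the range of its own group. Its sum was only just above that of the highest RC/RC mouse, which the second knockout did not reach. Of 6 thick ascending limb and distal tubule markers *Slc12a3* (−2.03, SE 0.33) and *Pvalb* (−1.40, SE 0.26) were lower in RC/RC (median −0.55), *Slc12a3* was higher in the knockout against RC/RC (1.44, SE 0.39, median 0.26), and none was called against WT (median −0.49). *Umod* was the most abundant of these at 1355 FPKM.

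Of the other cell types, the podocyte gene *Nphs1* was lower in RC/RC than in WT (−0.62, SE 0.16; 1 of 4, median −0.47) and the endothelial gene *Plvap* lower in the knockout than in RC/RC (−0.80, SE 0.22; 1 of 7, median −0.44). The other comparisons of these lists gave no call, with medians of 0.08 and −0.22 for podocyte markers and 0.34 and −0.03 for endothelial markers. None of 8 collecting duct markers (medians 0.47, −0.09 and 0.34) and none of 5 or 6 urothelial markers (medians 0.40, −0.14 and 0.23) was called in a comparison. *Podxl* (51.2 FPKM), *Plvap* (121 FPKM), *Aqp2* (303 FPKM) and *Upk1a* (3.54 FPKM) were the most abundant of these lists, and no gene of a cell type list was without reads in all mice. Leukocytes and endothelium also express *Vcam1*, *Icam1*, *Cd44*, *Plaur* and *Spp1*, and the part that the numbers of these cells have in the levels of the markers was not tested.

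**Figure D4:**
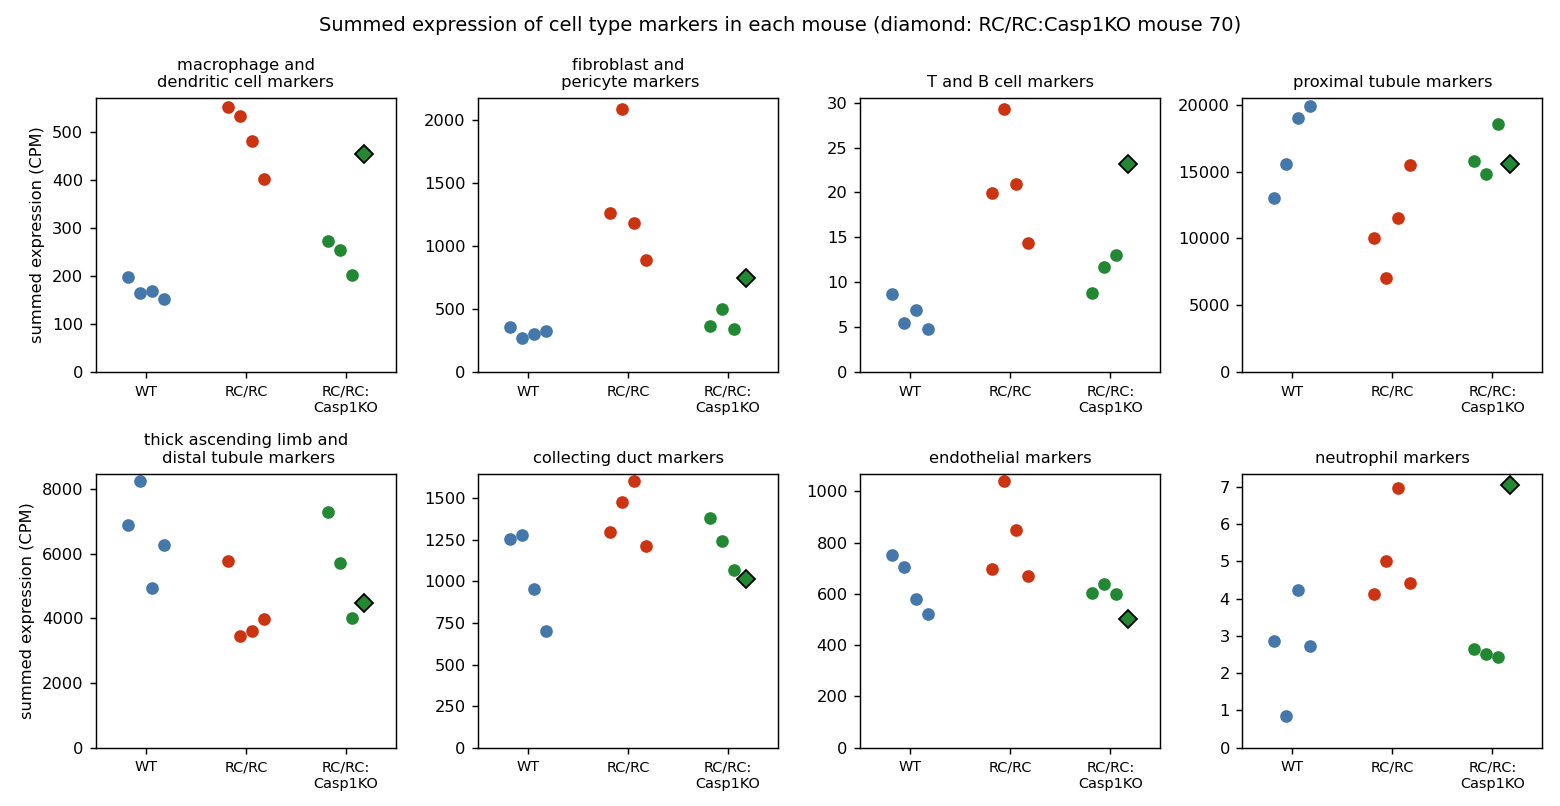
Summed CPM of the marker genes of 8 cell types in each mouse, with 1 panel per cell type, 1 point per mouse and a diamond for knockout mouse 70. Macrophage and dendritic cell markers are at 402 to 552 CPM in RC/RC mice and at 454 CPM in knockout mouse 70, with the other knockouts at 202 to 274 CPM.

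The genes whose profile over the 12 mice was nearest to 3 of the markers were found among 14163 genes with a mean of at least 1 CPM, by the Euclidean distance between log2 CPM values centered on each gene. Nearest to *Havcr1* were *Lcn2* (distance 1.53), *Ltbp2* (1.72), *Nkd2* (2.46) and *Serpina10* (2.49), where a flat profile is at 7.14. *Ltbp2*, which encodes a protein of elastic fibers, was at 0.431 to 1.12 CPM in WT mice and at 27.4 to 63.8 CPM in RC/RC mice. The knockouts had 3.81, 6.93, 6.81 and 54.7 CPM. In both genes mouse 70 was the high mouse of its group. Nearest to *Vcam1* were *Evi2a* (0.56), *Ctss* (0.61), *Ccl9* (0.69) and *C1qb* (0.70), with a flat profile at 2.77. *Ctss* encodes the lysosomal protease cathepsin S of antigen-presenting cells and *Ccl9* a chemokine, and *C1qb* is on the list of macrophage and dendritic cell markers. Nearest to *Spp1* were *Tmem98* (1.11), *Tgfb2* (1.43), *Lefty1* (1.43) and *Fgb* (1.47), with a flat profile at 3.33, and *Tgfb2* and *Lefty1* encode ligands of the TGF-beta family. These likenesses describe 12 mice of 3 groups and carry no test.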

How the data were processed

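The authors purified total RNA from kidney tissue, 1 library per mouse, and sequencing and analysis were done by Novogene. CASAVA 1.8, STAR and mm10 are named in the submitters' processing notes, and the counting tool and its strand setting are not given in the sources used here. The deposited counts are raw numbers of reads per gene and mouse, without normalization. The deposited fold changes, p-values and FPKM of the authors' own comparisons were not used. There were 0 columns of unknown group. Mice are separate animals, and in all 18 within-group pairs counts differed beyond sampling noise (chi-square over degrees of freedom 15.7 to 128, genes with 20 or more combined counts).

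The 3 pairs of groups were fitted separately, 8 mice at a time, by the quasi-likelihood method of edgeR 4.0.16 (R 4.3.3) with TMM factors and filterByExpr. Genes were called at a p-value under 0.05 after Benjamini-Hochberg adjustment over all genes tested. SE was taken from the log2 fold change and the root of its F statistic. CPM used TMM factors of all 12 mice, and FPKM the gene length and reads counted. Depth allows 3 counts, taken as the smallest readable signal, to stand for 0.121 to 0.166 CPM. Reads of *Sox4*, *Prom1* and *Icam1* could include those of 1 overlapping gene on the other strand each, which had at most 0, 16 and 1 counts in a mouse.

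The 10 markers and the 14 other lists of genes, of which 172 of 173 symbols matched, were chosen with earlier results of these data known. Beside the markers and *Casp1*, the genes named are the called genes with the largest change in each list and comparison (up to 4), the most abundant gene of each cell type list, and the 4 nearest profiles. *Relb*, *Nfkb2*, *Traf1*, *Tnfaip3*, *Birc3*, *Itgb6*, *Itgb8*, *Plau*, *Mmp7* and *Ly6g* were named after their values were seen. Some genes that this rule would name are not reported here. Alternatives were DESeq2 1.42.0 (Wald test), RLE factors, no factors beyond library size, a filter of at least 1 count in all, at least 10 counts in every mouse, 1 fit over all 12 mice, and each mouse left out in turn. The fit of RC/RC against WT was tested on simulated data, and the outcome is not reported here.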

Additional observations from a re-analysis of the deposited data

Results flagged for a closer look

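In groups of 4 mice, a highest or lowest value was looked at again when its gap to the nearest mouse exceeded Dixon's critical value for 4 samples at the 95% level. Of 75 groups checked 5 met this, where chance gives about 3.75. In RC/RC:*Casp1*KO mice *Vcam1* was at 54.6 CPM in mouse 70 (the nearest mouse at 21.2), *Sox9* at 4.63 CPM (nearest 1.38) and *Cd44* at 16.9 CPM (nearest 7.2). The summed level of the neutrophil markers was 7.04 CPM in the same mouse, with the nearest at 2.65. That sum is low, RC/RC mouse 140 had 6.96 CPM, and *S100a8* had at most 5 counts in any knockout. *Casp1* was at 2.06 CPM in WT mouse 2, with the nearest WT mouse at 1.41. Mouse 70 accounts for 4 of the 5, and these 4 values come from 1 library.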

How the results depend on the processing

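In RC/RC against WT the 7 markers called passed under all 6 alternatives, and 5 to 7 passed with each mouse left out. All genes called numbered 1971, with 3018 under DESeq2 (16.5% of the genes it tested) and 1162 to 2440 with each mouse left out, and injury and failed-repair genes 24, with 18 to 27. In RC/RC:*Casp1*KO against RC/RC, 1 marker was called, with 6 under DESeq2 (*Cd44*, *Clu*, *Icam1*, *Plaur*, *Spp1* and *Vcam1*), 0 with library size alone, 2 in the fit of all 12 mice and 0 to 6 with each mouse left out. All genes called numbered 1797, with 3182 under DESeq2 (18.1%), 993 with library size alone and 438 to 2789 with each mouse left out. Injury and failed-repair genes called numbered 17, with 26 under DESeq2, 7 with library size alone and 4 to 22 with each mouse left out. In RC/RC:*Casp1*KO against WT, 0 markers were called, with 2 under DESeq2 and in the fit of all 12 mice, 1 (*Cd44*) with all genes of at least 1 count and 0 to 2 with each mouse left out. All genes called numbered 311, with 1390 under DESeq2, 167 with at least 10 counts in every mouse and 108 to 547 with each mouse left out. Injury and failed-repair genes called numbered 1, with 9 under DESeq2, 2 with RLE factors, 3 with library size alone, 4 with all genes of at least 1 count, 3 in the fit of all 12 mice and 0 to 5 with each mouse left out.

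The sign turned for *Prom1* in the knockout against RC/RC (0.17, from −0.08 to 0.45 with each mouse left out) without the first (−0.03) or second knockout (−0.08). It turned for *Spp1* in the knockout against WT (0.22, from −0.07 to 0.62) without the third WT mouse (−0.07), and for *Plaur* (−0.06, from −0.18 to 0.12) with library size alone (0.08), without the third knockout (0.04) and without the first WT mouse (0.12). None of these values was called. With library size alone the share of called genes that were higher moved from 75.4% to 86.1% in RC/RC against WT, from 62.1% to 82.0% in the knockout against RC/RC and from 55.9% to 79.8% in the knockout against WT, where the median of all genes was then 0.14. In the fit of all 12 mice the last share was 67.9%. Without mouse 70 the share in the knockout against RC/RC was 51.1%, and 1057 of the 1407 genes called were among the 1797. The cause of these shifts was not tested. No paired analysis was possible because the columns carry no replicate number, and the division of the mice over all genes was not used as a block because no label gives it. Precision is limited by 4 mice per group, and for *Casp1* and *Sox9* also by low counts.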
